A study of Mus musculus with 6 samples.

Results

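The integrated stress response was followed through 10 genes in RNA sequencing libraries of mouse fetal liver with or without the miR-144/451 microRNA locus. The genes were taken by name from the table of gene counts: the kinase genes Eif2ak1, Eif2ak3 and Eif2ak4, the transcription factor genes Atf4, Atf5 and Ddit3, the effector genes Chac1 and Trib3, and the phosphatase subunit genes Ppp1r15a and Ppp1r15b. All 10 of these 10 were listed among 34542 genes, all 10 passed the filter on low counts that left 15105 genes, and all 10 were listed with exon and intron counts. The KO group was 3 libraries (replicates 4, 5 and 6) from C57BL/6J embryos of genotype miR-144/451-/-, and the WT group was 3 libraries (replicates 1, 2 and 3) from wild-type C57BL/6J embryos. Each library was made from polyadenylated RNA of whole fetal liver cells, the same number of cells being taken for each, and no sort of a cell type is named in the labels. The labels give neither the embryonic day nor whether a library was 1 embryo or a pool. The p-values therefore reflect only how much these 6 libraries vary.

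In the integrated stress response, a kinase that senses a shortage or a damage phosphorylates the alpha subunit of the translation factor eIF2. Most protein synthesis then slows, while a few messages with upstream reading frames, among them that of ATF4, are translated more. ATF4 and its partners raise the transcription of genes for amino acid supply, for cell death and for the return of translation, including the phosphatase subunit that takes the phosphate off eIF2 again. In red cell precursors the kinase encoded by Eif2ak1, known as HRI, is inhibited by heme and keeps globin synthesis matched to the heme supply. Protein, phosphorylation and translation were not measured here, so all values below are levels of RNA.

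Between 40392139 and 44700229 counts per KO library and between 24659978 and 36082084 per WT library were assigned to genes. The deleted locus was nearly silent in KO, with 0 to 1 counts of Mir144 and 2 to 4 of Mir451 per KO library, against 29 to 51 and 323 to 446 per WT library. Markers of erythroid cells and of hepatocytes were present in every group, as the labelled tissue would hold, with 0 of 14 and 0 of 20 markers at 0. The hepatocyte markers summed to 13686 to 49009 CPM in KO and 9298 to 60024 CPM in WT, highest in KO replicate 6 and WT replicate 2. CPM is the count of a gene relative to the TMM-scaled library size.

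Of the 10 genes, Chac1 alone held a seed match of a microRNA of the deleted locus in its longest annotated 3' untranslated region. The mature sequences are shown, 5′ to 3′ from RefSeq on GRCm38.p6, because these are the RNAs the KO embryos lack, with the seed (bases 2 to 8) in capitals. They lie on the plus strand of chromosome 11, from 78073186 to 78073207, 78073047 to 78073066 and 78073010 to 78073032 in the order shown, and no pair of them shares a seed.
mmu-miR-451a: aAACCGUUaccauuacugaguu
mmu-miR-144-3p: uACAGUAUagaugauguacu
mmu-miR-144-5p: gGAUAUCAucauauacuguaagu
Each match was searched on the transcript strand. The match of miR-451a (AACGGTT) was found in 0 of the 10 genes and in 2.30% of 12004 tested genes with such a region. That of miR-144-5p (TGATATC) was found in 0 of 10 and in 6.44%. That of miR-144-3p (ATACTGT) was found in 1 of 10 and in 13.7%. The regions searched were of unequal length, from 77 bases for Ppp1r15a, 81 for Atf4 and 197 for Ddit3 to 2896 for Ppp1r15b. A short region is less likely to hold a match. The single site starts at base 695 of the 791 bases of the Chac1 region, and it is given with its flanks, the seed match in capitals. A match of letters does not show that the microRNA acts there.
Chac1 site: cagttgacccATACTGTtacccataaa

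Of the 10 genes, 4 were lower in KO past an adjusted p of 0.05 and 0 were higher. The background was 1.45% of 15105 tested genes called lower and 1.83% called higher. The test was edgeR's quasi-likelihood test with Benjamini-Hochberg (BH) adjustment over all tested genes, as for every adjusted p of a gene below unless another tool is named. The effectors Chac1 and Trib3, the stress-induced phosphatase subunit Ppp1r15a and the factor Atf4 fell. At an unadjusted p under 0.05, 7 of 10 were lower and 0 higher, beside 8.78% lower and 7.77% higher over all tested genes. DESeq2 called 6 lower, adding Ddit3 and Ppp1r15b, and 0 higher, where it called 3.53% lower and 3.83% higher over all genes. The 3 KO and the 3 WT libraries did not overlap for 7 of the 10 genes, 6 with KO below WT and 1 with KO above, where 10.9% and 11.8% of all tested genes were apart in those directions. The median log2 change of the 10 was -0.54, against -0.03 over all tested genes. The 10 genes were chosen with earlier results of these data known, so these comparisons describe them and are no test of the set.

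**Figure D1:**
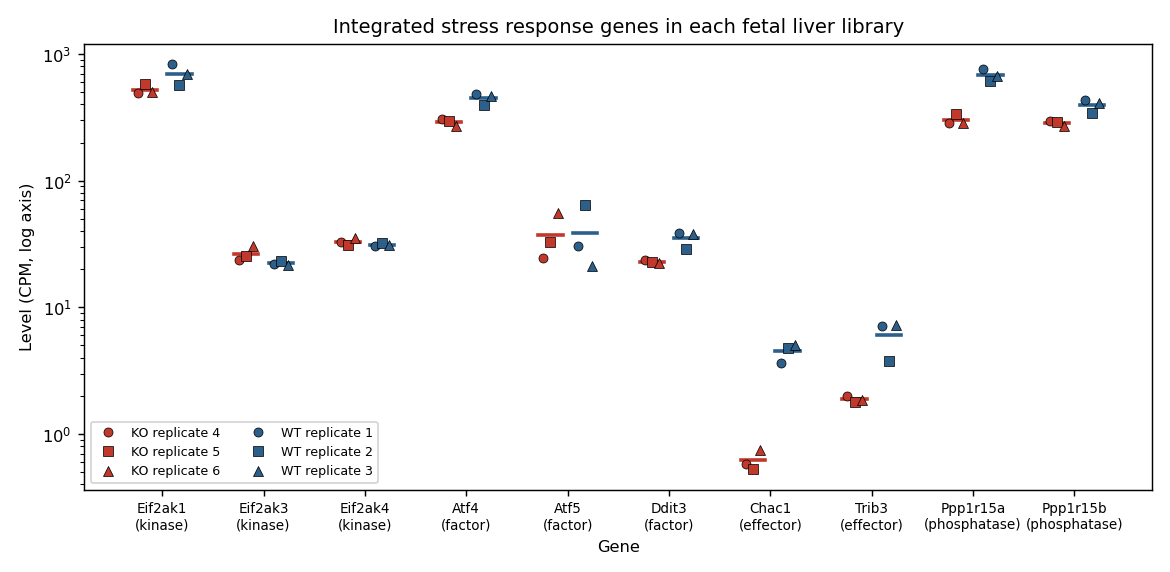
Level of the 10 genes in each library, in CPM on a log axis, with KO in red to the left of WT in blue. Points are libraries and bars are group means over 3 libraries; Chac1 lies at 0.525 to 0.751 CPM in KO and 3.62 to 5.07 CPM in WT.

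Chac1 encodes a cyclotransferase that breaks down glutathione and is a target of ATF4. It had 27, 22 and 31 counts in KO replicates 4, 5 and 6, against 121, 168 and 122 counts in WT replicates 1, 2 and 3. On the scaled level these were 0.575, 0.525 and 0.751 CPM in KO and 3.62, 4.79 and 5.07 CPM in WT. Every KO library lay far below every WT library, and the counts behind the KO values are small. The KO level was 13.8% of WT (log2 change -2.86, SE 0.24, adjusted p = 0.00830, edgeR), which placed Chac1 at rank 9 of 15105 tested genes by the size of its fall. The adjusted p was 0.0620 when KO replicate 4 was left out, 0.0673 for KO replicate 5 and 0.0572 for WT replicate 3, while the log2 change stayed between -3.24 and -2.76 over 13 alternatives. In GRCm38, Chac1 (ENSMUSG00000027313.3) is a protein-coding gene on the plus strand of chromosome 2, from 119351229 to 119354381, and no other annotated gene overlaps it.

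Because Chac1 fell most among the 10, its promoter is shown, from 250 bases before to 50 after the start that RefSeq gives (GRCm38.p6, chr2:119350992-119351291, plus strand). The capitals mark the one match to the C/EBP-ATF response element, the composite site bound by ATF4 with C/EBP partners, whose core was searched as TGATGNAA on both strands.
Chac1 promoter: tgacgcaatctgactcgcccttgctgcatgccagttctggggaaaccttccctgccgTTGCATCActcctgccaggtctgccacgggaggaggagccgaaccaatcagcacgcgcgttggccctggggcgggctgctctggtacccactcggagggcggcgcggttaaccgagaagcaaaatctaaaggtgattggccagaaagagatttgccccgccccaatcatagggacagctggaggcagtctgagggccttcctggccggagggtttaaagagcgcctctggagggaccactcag
The match TTGCATCA, the reverse complement of TGATGCAA, spans bases 193 to 186 before the start, at positions 119351049 to 119351056. This core was found in 3.97% of 32851 promoter windows of the same length, and with a C at the open base (TGATGCAA, a subset of the core) in 0.895%. Among the 9 members with a window, 2 held the core, namely Chac1 and Trib3. A match of letters does not show that a factor binds there.

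Trib3 encodes a pseudokinase that binds ATF4, CHOP and the kinase AKT and is itself induced by ATF4. It had 94, 75 and 76 counts in KO replicates 4 to 6, against 236, 132 and 174 in WT replicates 1 to 3. Levels were 2.002, 1.79 and 1.84 CPM in KO and 7.07, 3.76 and 7.23 CPM in WT. The KO libraries were close together and below all WT libraries, of which replicate 2 was the lowest. The KO level was 31.3% of WT (log2 change -1.68, SE 0.28, adjusted p = 0.0337, edgeR). The call was lost in 5 of the 6 fits that leave out a library, with adjusted p of 0.101, 0.120 and 0.0979 for KO replicates 4, 5 and 6, and of 0.145 and 0.134 for WT replicates 1 and 3, while the log2 change in these 5 fits was -1.73 to -1.53. Limma-voom gave an adjusted p of 0.0547. Trib3 (ENSMUSG00000032715.9) lies on the minus strand of chromosome 2 from 152337422 to 152344032, with no overlapping gene.

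The Trib3 window is shown as the other one with the core in capitals (GRCm38.p6, chr2:152344011-152344310, minus strand).
Trib3 promoter: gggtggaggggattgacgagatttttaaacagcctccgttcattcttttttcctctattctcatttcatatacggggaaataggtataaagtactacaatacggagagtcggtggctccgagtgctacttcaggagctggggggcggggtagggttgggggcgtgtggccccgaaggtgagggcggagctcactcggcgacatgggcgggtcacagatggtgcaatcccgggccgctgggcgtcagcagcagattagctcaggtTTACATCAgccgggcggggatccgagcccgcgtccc
Here the match, TTACATCA, lies after the RefSeq start rather than before it, beginning at base 15 of the RefSeq transcript, at positions 152344039 to 152344046. The gene coordinates given above, from GENCODE, put the start at 152344032 on this strand. By that start the match lies before the gene. It is not the TGATGCAA form.

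Ppp1r15a encodes GADD34, the inducible subunit that brings protein phosphatase 1 to phosphorylated eIF2. It had 13499, 14113 and 11875 counts in KO replicates 4 to 6, against 25531, 21405 and 16076 in WT replicates 1 to 3. Levels were 288, 337 and 288 CPM in KO and 765, 610 and 668 CPM in WT, so that the highest KO library was well below the lowest WT library. The KO level was 44.6% of WT (log2 change -1.16, SE 0.13, adjusted p = 0.0137, edgeR). The adjusted p was 0.0620 or 0.0520 when KO replicate 4 or 5 was left out, and 0.0682 or 0.0730 for WT replicate 1 or 3, with log2 changes of -1.25 to -1.07. In GRCm38, Ppp1r15a (ENSMUSG00000040435.12) lies on the minus strand of chromosome 7 from 45522916 to 45526268 and overlaps Tulp2 on the other strand, and reads of such a pair cannot be told apart without strand.

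Ppp1r15a was the member whose window held the cAMP response element TGACGTCA, a site of the CREB and ATF family that reads the same on both strands, and it is shown with that element in capitals (GRCm38.p6, chr7:45526219-45526518, minus strand).
Ppp1r15a promoter: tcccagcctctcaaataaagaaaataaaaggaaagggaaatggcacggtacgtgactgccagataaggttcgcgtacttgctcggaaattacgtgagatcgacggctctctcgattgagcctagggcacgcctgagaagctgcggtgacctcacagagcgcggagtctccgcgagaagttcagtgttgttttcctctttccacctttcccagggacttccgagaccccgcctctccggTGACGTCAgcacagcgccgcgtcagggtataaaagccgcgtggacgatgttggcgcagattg
The element spans bases 12 to 5 before the start, at positions 45526273 to 45526280. It was found in 1.79% of all 32851 windows and in 1 of the 11 windows of the members. The core TGATGNAA was not in this window.

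Ppp1r15b encodes CReP, the constitutive counterpart of GADD34. It had 295, 293 and 271 CPM in KO replicates 4 to 6, against 436, 345 and 410 CPM in WT replicates 1 to 3. All KO libraries were below all WT libraries, WT replicate 2 being the nearest. The log2 change was -0.47 (SE 0.11), and it did not pass by edgeR (adjusted p = 0.0856), whereas DESeq2 gave an adjusted p of 0.00885. Without WT replicate 2 edgeR's adjusted p was 0.0115, and 0.118 to 0.281 without any of the other 5 libraries. The gene (ENSMUSG00000046062.5) lies on the plus strand of chromosome 1 from 133131143 to 133139783 and overlaps Gm26616 on the other strand.

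Atf4 encodes the central transcription factor of the response, which is controlled largely at translation. Its levels were 308, 299 and 268 CPM in KO replicates 4 to 6, against 488, 393 and 467 CPM in WT replicates 1 to 3, from 11070 to 14468 counts in KO and 11257 to 16277 in WT. The scaled levels of the groups did not overlap. The KO level was 64.9% of WT (log2 change -0.62, SE 0.12, adjusted p = 0.0436, edgeR). This call was near the threshold and was lost without KO replicate 4 (adjusted p = 0.0809), KO replicate 5 (0.0985), KO replicate 6 (0.0712), WT replicate 1 (0.170) or WT replicate 3 (0.189). The log2 change in these 5 fits was -0.67 to -0.56. The call was also lost without the filter on low counts (0.0708). Atf4 (ENSMUSG00000042406.8) lies on the plus strand of chromosome 15 from 80255184 to 80257541.

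Ddit3 encodes CHOP, the stress-induced partner of C/EBP factors that takes part in cell death. It had 23.6, 22.8 and 22.2 CPM in KO replicates 4 to 6, against 38.6, 28.9 and 37.9 CPM in WT replicates 1 to 3. The KO libraries were close to each other and below every WT library, of which replicate 2 was the lowest. The log2 change of -0.62 (SE 0.13) was as large as that of Atf4, but the adjusted p was 0.0648 by edgeR and 0.00413 by DESeq2. Without WT replicate 2 it was 0.00782 by edgeR, and 0.116 to 0.251 without any of the other 5 libraries. Ddit3 (ENSMUSG00000025408.15) lies on the plus strand of chromosome 10 from 127290774 to 127296288. It overlaps Mars and Gm4189 on the other strand and a second gene model of the same name. Part of its counts may belong to these.

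Atf5 encodes a factor related to ATF4 that is also abundant in hepatocytes. It had 24.5, 32.7 and 55.5 CPM in KO replicates 4 to 6, against 30.4, 64.1 and 21.0 CPM in WT replicates 1 to 3. The groups overlapped widely, with the highest level in WT replicate 2 and the next in KO replicate 6, the same libraries that were highest in hepatocyte markers. The log2 change was -0.04 (SE 0.47, adjusted p = 0.998, edgeR), and its sign depended on the setting. When the mean hepatocyte marker level entered the fit it was -0.11 (adjusted p = 0.286, edgeR), with an SE of 0.06 in place of 0.47. Atf5 lies on the minus strand of chromosome 7 from 44812256 to 44816658 and overlaps Nup62 and Il4i1 on the other strand.

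Of the 3 kinase genes 0 passed by edgeR or DESeq2, and 1 had an unadjusted p under 0.05 by edgeR, Eif2ak1. Eif2ak1, the heme-regulated kinase HRI, had 491, 575 and 503 CPM in KO replicates 4 to 6, against 832, 575 and 700 CPM in WT replicates 1 to 3. KO replicate 5 and WT replicate 2 were at almost the same level, which is where the groups met. The log2 change was -0.42 (SE 0.16, adjusted p = 0.244, edgeR), with -0.55 when WT replicate 2 was left out (adjusted p = 0.0363, edgeR) and -0.28 when WT replicate 1 was (0.592). Leaving out any of the other 4 libraries gave adjusted p of 0.226 to 0.450 by edgeR. Eif2ak1 lies on the plus strand of chromosome 5 from 143817788 to 143904251 and overlaps Ankrd61 and Aimp2 on the other strand.

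Eif2ak3, the kinase PERK of the endoplasmic reticulum, had 23.7, 25.5 and 30.3 CPM in KO replicates 4 to 6, against 21.8, 23.1 and 21.6 CPM in WT replicates 1 to 3. It was the 1 member whose KO libraries were all above the WT libraries. The difference did not pass (log2 change 0.26, SE 0.12, adjusted p = 0.348, edgeR). Eif2ak4, the amino acid sensor GCN2, had 32.7, 30.9 and 35.2 CPM in KO and 30.6, 32.3 and 30.9 CPM in WT, with overlapping groups (log2 change 0.08, SE 0.09, adjusted p = 0.808, edgeR). Eif2ak3 lies on the plus strand of chromosome 6 from 70844515 to 70905245. It overlaps Gm43292 on the other strand and the small nucleolar RNA gene Gm23346 on its own. Eif2ak4 lies on the plus strand of chromosome 2 from 118388618 to 118475234, with no overlapping gene. The remaining eIF2 kinase gene Eif2ak2, the double-stranded RNA sensor PKR and not among the 10, averaged 54.4 ± 6.51 CPM in KO and 57.3 ± 8.35 CPM in WT (SD, n = 3 each, adjusted p = 0.922, edgeR).

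**Figure D2:**
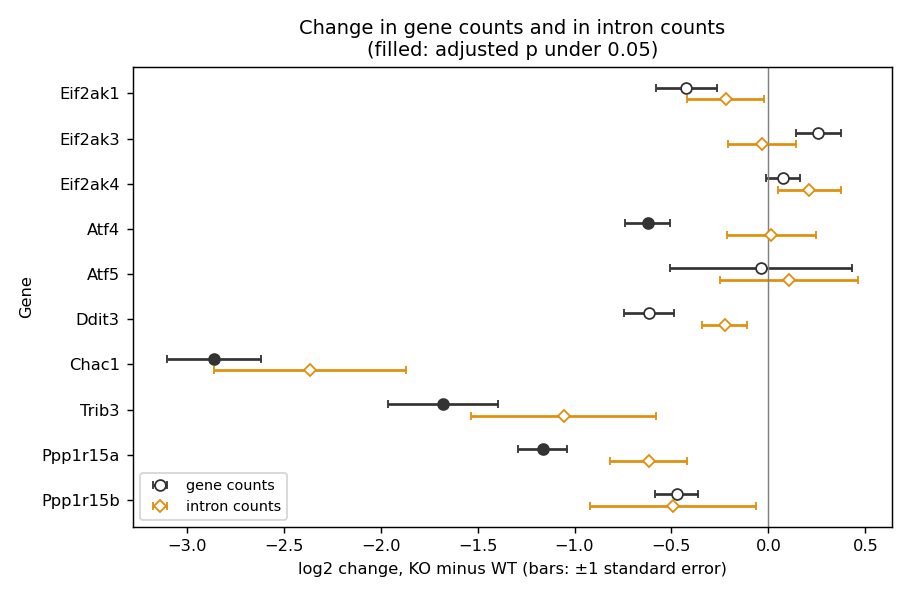
log2 change (KO minus WT) of each gene in gene counts (circles) and in intron counts (diamonds), with bars of 1 standard error and filled symbols where the adjusted p was under 0.05. Chac1, Trib3, Ppp1r15a and Atf4 are filled in gene counts, and no gene is filled in intron counts.

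To set the genes against each other, levels were divided by the exonic length annotated in GRCm38 (CPM per kb). In KO the order was Atf4 (124 CPM per kb), Ppp1r15a (103), Eif2ak1 (92.3), Ppp1r15b (51.2), Atf5 (18.8), Ddit3 (13.4), Eif2ak4 (4.42), Eif2ak3 (4.4004), Trib3 (0.883) and Chac1 (0.377). In WT it was Ppp1r15a (232 CPM per kb), Atf4 (191), Eif2ak1 (124), Ppp1r15b (71.0), Ddit3 (20.5), Atf5 (19.3), Eif2ak4 (4.19), Eif2ak3 (3.68), Trib3 (2.83) and Chac1 (2.75). In both groups Eif2ak1 was the most abundant of the 3 kinase messages per length, Ppp1r15a, Atf4 and Eif2ak1 took the top ranks, and Trib3 and Chac1 the lowest. The neighbours whose libraries overlapped were Atf4 with Ppp1r15a, Ppp1r15a with Eif2ak1, Atf5 with Ddit3 and Eif2ak4 with Eif2ak3 in KO, and Ddit3 with Atf5 and Trib3 with Chac1 in WT.

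Intron counts, which stand for unspliced RNA, were examined to see whether the lower levels were present before splicing. None of the 10 passed in intron counts, where 0.483% of 11803 genes were called lower by edgeR, and DESeq2 also called 0 of the 10. By edgeR, 2 of the 10 intron values had an unadjusted p under 0.05, both lower, namely Chac1 and Ppp1r15a, beside 5.45% lower over all genes. Chac1 introns had 7, 4 and 4 counts in KO replicates 4 to 6, against 20, 12 and 28 in WT replicates 1 to 3. On the intron scale these were 0.614, 0.553 and 0.475 CPM in KO and 3.00, 1.74 and 3.97 CPM in WT, again with no overlap (log2 change -2.37, SE 0.50, adjusted p = 0.0980, edgeR). These values rest on 4 to 28 counts per library. All KO counts were under the filter's minimum of 10 and all WT counts above it, so Chac1 introns entered the test through WT alone. A gene let in that way is likely to come out lower in KO, so its intron p-value and its place beside the 5.45% carry no weight.

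Ppp1r15a introns had 29.2, 35.8 and 34.7 CPM in KO replicates 4 to 6, against 55.3, 38.5 and 59.0 CPM in WT replicates 1 to 3. The groups were apart by a few CPM at WT replicate 2 (log2 change -0.62, SE 0.20, adjusted p = 0.305, edgeR). Trib3 introns, at 1.32, 1.11 and 1.90 CPM in KO and 4.34, 1.74 and 2.98 CPM in WT, overlapped (log2 change -1.06, SE 0.47, adjusted p = 0.484, edgeR). Atf4 introns overlapped as well, at 35.4, 21.4 and 32.5 CPM in KO and 29.4, 25.4 and 33.9 CPM in WT (log2 change 0.02, SE 0.23, adjusted p = 0.997, edgeR).

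The exonic change was then set against the intronic change in one fit. No member passed that test, nor did any gene (0% of 11100 by edgeR, while DESeq2 called 34 higher and 8 lower). DESeq2 called 0 of the 10, but it gave no adjusted p for Eif2ak3, Atf5, Chac1 and Trib3, so these had no DESeq2 result. At an unadjusted p under 0.05, 2 of 10 had a lower exonic than intronic change and 0 a higher one, beside 1.5% of all genes lower. They were Atf4 (difference -0.62, SE 0.23, adjusted p = 0.99997, edgeR) and Ppp1r15a (-0.56, SE 0.19, adjusted p = 0.99997, edgeR). For Chac1 the difference was -0.52 (SE 0.57, adjusted p = 0.99997, edgeR). Introns took 58.6% of exonic plus intronic counts of Ddit3 in KO and 53.9% in WT, against 2.14% and 1.46% for Atf4, and the intron counts of Ddit3 share positions with the overlapping genes named above.

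Erythroid markers were examined beside the 10 genes, since red cell precursors make up much of the fetal liver. Of 14 measured markers, 2 fell and 0 rose by edgeR, with 9 lower if p was left unadjusted (under 0.05), where 8.78% of all tested genes were. DESeq2 called 9 of the 14 lower and 0 higher, beside 3.53% and 3.83% over all genes. For 9 of the 14, all KO libraries lay below all WT libraries, where 10.9% of all tested genes did. The log2 change was below 0 in 14 of 14, against 55.2% of all tested genes, with a median of -0.55. The 2 that fell by edgeR were named after their values were seen. They were the transferrin receptor gene Tfrc (log2 change -0.83, adjusted p = 0.0336, edgeR) and Epb4.2 (-0.72, adjusted p = 0.0481, edgeR). The markers summed to 18619 to 21805 CPM in KO and 24372 to 33615 CPM in WT, without overlap, and WT replicate 2 was the lowest WT library in them. It was also the lowest WT library for 6 of the 10 genes, namely Eif2ak1, Atf4, Ddit3, Trib3, Ppp1r15a and Ppp1r15b. In such bulk samples, fewer cells of a type and less RNA per cell cannot be told apart. The log2 change was further below 0 than that of Eif2ak1 in 9 of the 14 markers, than that of Ppp1r15b in 8, than that of Atf4 or Ddit3 in 2, and than that of Ppp1r15a, Trib3 or Chac1 in 0.

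With the mean erythroid marker level as a covariate, an alternative added after seeing the data, Chac1 (log2 change -3.24, SE 0.34, adjusted p = 0.0348, edgeR) and Ppp1r15a (-0.84, SE 0.12, adjusted p = 0.0462, edgeR) still passed. Trib3 (-0.77, SE 0.33, adjusted p = 0.174) and Atf4 (-0.29, SE 0.09, adjusted p = 0.113) did not pass in that edgeR fit. Ddit3 stood at -0.21 (adjusted p = 0.330), Ppp1r15b at -0.14 (0.264) and Eif2ak1 at 0.08 (0.661), again by edgeR. Atf5 moved furthest, to -1.34 (SE 0.52, adjusted p = 0.145, edgeR), against -0.04 with no covariate. The marker level itself differs between the genotypes, so in this fit genotype and marker level cannot be fully told apart. With hepatocyte marker level as the covariate instead, 6 of the 10 were lower, Ddit3 and Ppp1r15b joining the 4. That fit called 1292 lower and 1281 higher over all genes. The erythroid fit called 32 lower and 177 higher, and the fit with no covariate 219 lower and 276 higher. None of the 20 hepatocyte markers passed (edgeR), 0 had an unadjusted p under 0.05 and DESeq2 called 0.

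**Figure D3:**
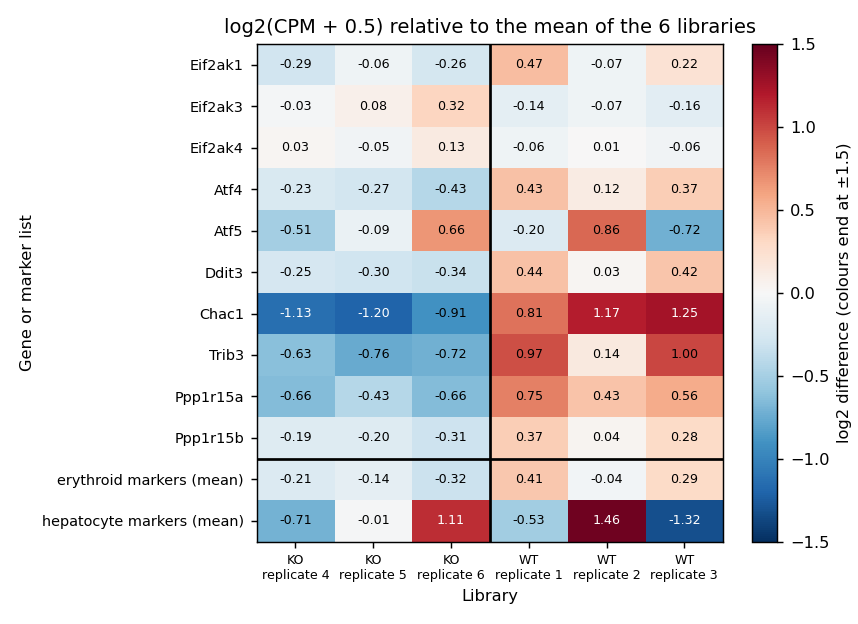
log2(CPM + 0.5) of the 10 genes, and the mean over the erythroid and the hepatocyte markers, in each library relative to the mean of the 6 libraries, with KO libraries left of WT libraries. The Chac1 row runs from -1.20 to -0.91 in KO and from 0.81 to 1.25 in WT, and the Atf5 and hepatocyte rows are both highest in WT replicate 2 and next in KO replicate 6.

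The neutrophil, mast cell and basophil, macrophage, endothelial and megakaryocyte markers gave no call by edgeR. The log2 change was below 0 in 10 of 10 neutrophil markers (median -0.60), 7 of 8 mast cell and basophil markers (-0.44), 11 of 13 macrophage markers (-0.16), 7 of 10 megakaryocyte markers (-0.03) and 0 of 10 endothelial markers (0.13). The neutrophil median was thus slightly further below 0 than those of the erythroid markers and the 10 genes. Summed levels overlapped between the groups for neutrophils (1592 to 3366 CPM in KO, 2513 to 4398 CPM in WT), macrophages (458 to 681 CPM in KO, 391 to 960 CPM in WT), endothelium (157 to 366 CPM in KO, 123 to 364 CPM in WT) and megakaryocytes (243 to 400 CPM in KO, 234 to 455 CPM in WT). The mast cell and basophil markers summed to 119 to 135 CPM in KO and 137 to 158 CPM in WT, without overlap. Most of the sum came from Kit, whose own groups overlapped (103 ± 5.95 CPM in KO, 111 ± 6.02 CPM in WT, adjusted p = 0.641, edgeR). Of their 8 tested markers 2 were lower at an unadjusted p below 0.05 (edgeR), beside 8.78% over all genes. These were Ms4a2 and Gata2, both with all KO libraries below all WT libraries. In the other 4 lists 0 were lower at that p. DESeq2 called 0 in each of the 5 lists. Whether these cells contribute to the levels of the 10 genes was not tested.

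The rest of the pathway was measured by 5 lists that hold 92 tested genes. Of these 1 rose and 2 fell by edgeR, shares near the 1.83% and 1.45% of all tested genes called in those directions. The median log2 change was -0.04, against -0.03 over all genes. These lists hold the machinery around the kinases and the targets downstream. Of 12 genes for eIF2, eIF2B and related factors 0 passed by edgeR or DESeq2 (median -0.01), and edgeR gave 1 lower with an unadjusted p under 0.05, a share near the 8.78% of all genes. The gene of smallest p was Eif2s2, the beta subunit of eIF2, at 251 ± 10.2 CPM in KO and 325 ± 59.4 CPM in WT (SD, n = 3 each, adjusted p = 0.272, edgeR). Eif5, whose product activates the GTPase of eIF2, was the most abundant at 814 ± 79.8 CPM in KO and 967 ± 118 CPM in WT (adjusted p = 0.449, edgeR).

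Among 12 tested regulators of the kinases and partners of the phosphatase 0 passed by edgeR (median 0.04), 2 were higher at an unadjusted p under 0.05 and DESeq2 called 1 higher. Gcn1l1, whose product binds ribosomes and activates GCN2, averaged 172 ± 13.4 CPM in KO and 132 ± 8.03 CPM in WT, without overlap (log2 change 0.38, SE 0.09, adjusted p = 0.0816 by edgeR and 0.0136 by DESeq2). The phosphatase catalytic subunit gene Ppp1cb measured 668 ± 86.8 CPM in KO and 803 ± 134 CPM in WT (adjusted p = 0.511, edgeR). Its relative Ppp1ca measured 346 ± 17.9 CPM in KO and 333 ± 26.9 CPM in WT (adjusted p = 0.918, edgeR).

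Of 24 tested genes in the list of ATF4 partners and other stress targets 1 rose, 1 fell and 22 did not pass (median -0.04). Chac2, the paralogue of Chac1 with a slower activity on glutathione, fell to 52.4 ± 5.18 CPM in KO, against 114 ± 16.0 CPM in WT (log2 change -1.12, SE 0.13, adjusted p = 0.0149, edgeR). Whether Chac2 is itself a target of ATF4 or of stress was not tested. Ero1l, an oxidase for disulfide bonds in the endoplasmic reticulum, rose to 174 ± 9.65 CPM in KO, against 126 ± 6.41 CPM in WT (0.46, SE 0.08, adjusted p = 0.0336, edgeR). Of 23 amino acid genes known to be under ATF4 1 fell, 22 did not pass, and 7 were lower and 0 higher at an unadjusted p under 0.05 (8.78% and 7.77% over all genes), with a median of -0.23. DESeq2 called 4 of them lower, beside 3.53% over all genes. The one that fell was Slc1a5, a glutamine transporter, at 351 ± 28.6 CPM in KO and 570 ± 73.6 CPM in WT (-0.70, SE 0.13, adjusted p = 0.0430, edgeR).

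Of 21 genes of the other arms of endoplasmic reticulum stress and its chaperones 0 passed by edgeR (median -0.01). By edgeR 1 was higher at an unadjusted p under 0.05, beside 7.77% over all genes. DESeq2 called 1 higher, beside 3.83%. Hspa5, the chaperone BiP, measured 676 ± 121 CPM in KO and 760 ± 135 CPM in WT (adjusted p = 0.787, edgeR). Calr, the chaperone calreticulin, measured 699 ± 30.5 CPM in KO and 734 ± 60.6 CPM in WT (adjusted p = 0.885, edgeR). Atf6b, a membrane-bound factor, was at 52.4 ± 5.01 CPM in KO and 40.2 ± 0.543 CPM in WT (log2 change 0.38, adjusted p = 0.0891 by edgeR and 0.0358 by DESeq2). Without KO replicate 4, 5 or 6, or WT replicate 1 or 3, none of the 92 genes passed by edgeR, and without WT replicate 2 there were 14 lower and 1 higher. With the erythroid covariate 0 of the 92 were lower and 1 higher.

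**Figure D4:**
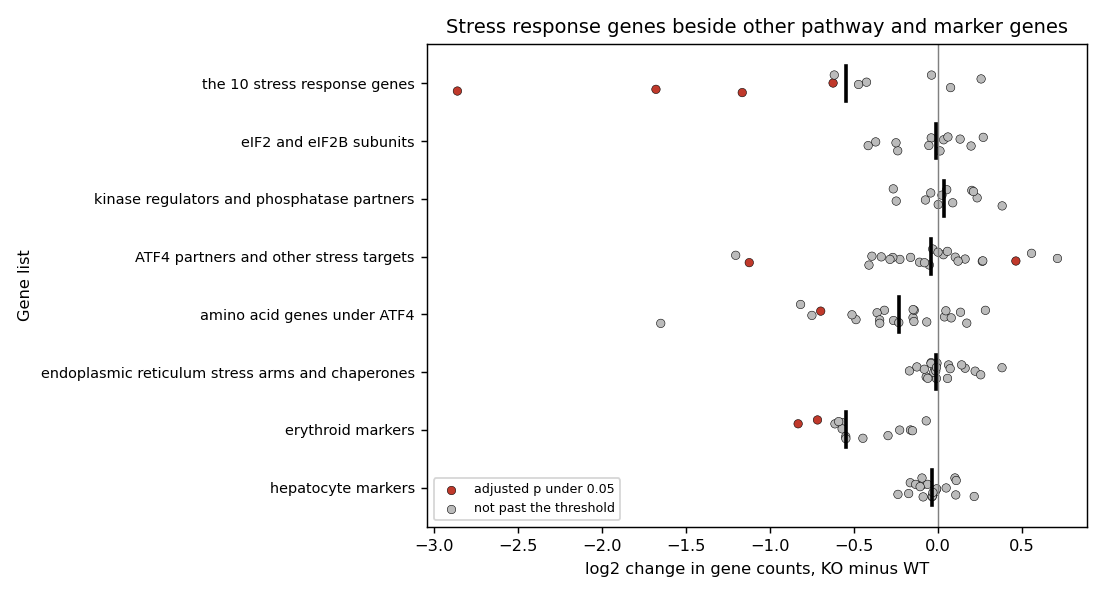
log2 change in gene counts (KO minus WT) of the 10 genes, of 5 pathway lists and of erythroid and hepatocyte markers. Points are genes, red where the adjusted p was under 0.05, and the black bar is the median, at -0.54 for the 10 genes and -0.01 for the chaperones.

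Genes with the most similar pattern were sought for 4 of the members, by Pearson correlation of log2(CPM + 0.5) over the 6 libraries. The search took in 10541 other genes that averaged 5 CPM or more. Gene models without a gene name, which are counted in that number, were passed over in the ranking. For Chac1 these were Rltpr (r = 0.997), Mir451 (0.997), which is itself in the deleted locus, and Papd7 (0.995). For Ddit3 they were Fignl1 (0.999), Slc43a3 (0.999) and Ccdc41 (0.997). For Atf4 they were the amino acid transporter gene Slc43a1 (0.9996), Kctd14 (0.998) and Ccm2 (0.998). For Eif2ak1 they were Pip4k2a (0.999), Tmx4 (0.999) and the glyoxalase gene Glo1 (0.997). All points share the same 6 libraries and the same contrast of genotypes, so values this high describe the ranking and carry no test. Among the members themselves, r was 0.997 for Ddit3 with Trib3 and 0.993 for Atf4 with Ppp1r15b, and -0.87 for Eif2ak3 with Atf4.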

How the data were processed

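Polyadenylated RNA of fetal liver cells was sequenced in 3 KO and 3 WT libraries. Per the file headers, the authors deposited raw counts by gene symbol in 2 tables: gene counts, in which 0 symbols of globin or mitochondrial genes were found, and exon and intron counts, whose exon counts equal the gene counts for all 15543 genes listed. STAR and HTSeq, and the builds NCBIM37 and mm10, are named in the submitters' processing notes; their versions, the strand setting and the definition of introns are not stated in the labels or headers. Library sizes leave out globin transcripts. To look for a library deposited more than once, libraries of a group were compared by chi-square of their counts over genes (13.2 to 123 per degree of freedom), and no pair was a duplicate. No molecular identifiers are named, so counting error was not separated from duplicates.

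Counts were scaled by TMM and tested with edgeR 4.0.16 in R 4.3.3 (glmQLFit, glmQLFTest, filterByExpr with minimum count 10 and total 15), KO against WT, two-sided, with BH adjustment over all tested genes at 0.05. Introns were scaled apart, and the interaction of region with genotype had a term per library. Each SE of an edgeR fit was derived from its test, as the absolute log2 change divided by the square root of the F statistic. DESeq2 1.42.0 and limma-voom (limma 3.58.1) were alternatives. The tests were also run on simulated counts in which well-counted genes were changed by large folds. Changes in genes of low count and small changes were not simulated. Coordinates, exonic lengths and 3' regions came from GENCODE on GRCm38, promoters and microRNAs from RefSeq on GRCm38.p6, which may not be the build behind the counts, so genes were matched by symbol only. All 10 genes matched, and 9 had a promoter window.

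The members, lists, tests and naming rule were chosen with earlier results of these data known. The rule names all members and the called genes of each pathway list (at most 6). With none called, it names the 2 most abundant genes of the list and the one of smallest p. It also names the 3 genes most like Chac1, Ddit3, Eif2ak1 and Atf4, passing over gene models without a gene name. Listed symbols not found in the table (3 of 96 pathway genes, 3 of 17 erythroid markers) were not used here.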

Additional observations from a re-analysis of the deposited data

How the results depend on the processing

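With 1 library fewer most calls were lost while the log2 changes moved little, at -3.04 to -2.76 for Chac1, -1.93 to -1.53 for Trib3, -1.25 to -1.07 for Ppp1r15a and -0.71 to -0.56 for Atf4. Leaving out each library in turn gave 0 to 7 of the 10 genes lower, 0 for KO replicate 4, KO replicate 5 or WT replicate 3 and 7 for WT replicate 2, with 0 higher in each. Over all genes it gave 5 to 483 higher and 7 to 1012 lower, beside 276 and 219 with all 6 libraries, and over the other pathway genes 0 to 1 higher and 0 to 14 lower. Dropping the pair richest in hepatocyte markers (KO replicate 6 and WT replicate 2) left 6 of the 10 lower, with 580 higher and 838 lower over all genes and 5 and 12 over the other pathway genes. DESeq2 gave 543 and 501 over all genes and 3 and 5 over the other pathway genes. The hepatocyte covariate gave 1281 and 1292, and 9 and 13. The erythroid covariate, chosen after seeing the data, gave 2 of the 10 lower, 177 higher and 32 lower over all genes, and 0 other pathway genes lower. Without the filter on low counts 1 other pathway gene was lower.

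DESeq2 size factors kept Chac1, Trib3, Ppp1r15a and Atf4 called. Limma-voom called Chac1, Ppp1r15a and Atf4, and the fit without a filter, like that on the exon counts, called Chac1, Trib3 and Ppp1r15a. The log2 change of these 4 genes, and of Ddit3 and Ppp1r15b, was below 0 in all 13 alternatives. Over 130 values of the 10 genes the sign turned in 8. For Atf5 it was 0.00012 by limma-voom, 0.0024 without the filter and 0.18 without both hepatocyte-rich libraries, -0.46 to 0.54 leaving out single libraries, and -1.34 with the erythroid covariate, where the sign held. With the erythroid covariate the log2 change of Eif2ak1 was 0.0799 and that of Eif2ak4 was -0.0564. The cause of these turns was not tested. Intron and exon-against-intron calls stayed at 0 for the 10 genes under each alternative run. In the exon-against-intron fit, DESeq2 gave no adjusted p for Eif2ak3, Atf5, Chac1 and Trib3. No paired analysis was possible because the KO and WT libraries share no replicate number. The small counts of Chac1 and Trib3, above all in introns, limit their precision.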
